A study of Caenorhabditis elegans with 2 samples.

Results

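The regions described here are stretches of autosomal DNA, listed in an experiment that recovered DNA with SKN-1, far from every protein-coding gene start. They were chosen from 1 relaxed list of regions, made by the authors from both replicates pooled, on the ce11 assembly. The list is labelled as peaks and background, so a listed region need not be bound by SKN-1. A region was kept when its summit lay outside every protein-coding gene body and more than 2000 bp from every protein-coding gene start. Its summit also had to lie more than 300 bp from any tRNA, snRNA or snoRNA gene. This left 2829 distal regions, which were 11.7% of the 24221 autosomal regions and 9.50% of all 29768 pooled regions. The rule used position only, so signal and base sequence were free to vary among the members. The remaining autosomal regions were 4855 between genes but within 2000 bp of a start, 16488 with the summit in a gene body, and 49 set aside for a nearby small RNA gene.

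The data came from chromatin immunoprecipitation followed by sequencing (ChIP-seq) of an eGFP-tagged SKN-1 in Caenorhabditis elegans. Whole L4 larvae of both sexes were used, from strain OP342 (unc-119(ed3) III; wgIs342), in 1 group of 2 biological replicates. Both replicates carry the unc-119 mutation and the transgene wgIs342, and the tagged protein is the transgene's product. Whole animals mix all tissues, so a region bound in few cells and one bound weakly in many cannot be told apart. There is no second condition. Replicate 1 was compared with replicate 2, strong members with weak ones, members with their own flanks, and distal regions with those nearer to genes.

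The transcription factor SKN-1 is the worm's counterpart of the mammalian Nrf proteins. It is known for activating detoxification genes under oxidative stress and for specifying endoderm and mesoderm in the embryo. It binds DNA as a monomer, through a basic region and an arm like that of homeodomains. Worm genes are closely packed, and most characterised control sequences lie just upstream of the genes they serve. Distal stretches can hold enhancers, the promoters of non-coding RNA genes such as microRNAs, and starts that an annotation lacks.

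The sequences at the strongest distal regions are shown because the motif counts turn on them. Each line gives 60 bases of the + strand of ce11 (RefSeq WBcel235), from a member in the authors' thresholded list, named by its nearest protein-coding start. Capitals mark GAGAGA or its reverse complement TCTCTC. The 2 members without either within 100 bp of the summit, those near cmd-1 and F58D12.3, are shown in lower case around the summit.
cmd-1, chrV:1151440-1151499: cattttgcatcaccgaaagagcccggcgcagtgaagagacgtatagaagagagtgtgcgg
F07H5.13, chrII:8787559-8787618: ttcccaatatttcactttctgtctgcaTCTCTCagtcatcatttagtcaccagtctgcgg
F22B7.9, chrIII:8658548-8658607: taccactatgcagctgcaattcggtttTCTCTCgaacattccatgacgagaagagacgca
F58D12.3, chrV:14055206-14055265: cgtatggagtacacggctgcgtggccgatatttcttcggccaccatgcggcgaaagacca
Y17G7B.17, chrII:12102525-12102584: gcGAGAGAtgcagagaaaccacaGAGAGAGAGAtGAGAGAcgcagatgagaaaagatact
nhr-88, chrII:2973998-2974057: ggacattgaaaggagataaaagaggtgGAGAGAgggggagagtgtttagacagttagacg
Y37A1B.7, chrIV:14033871-14033930: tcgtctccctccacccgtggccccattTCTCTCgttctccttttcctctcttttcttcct

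The 4 members among the 1000 strongest pooled regions that held the SKN-1 site are shown next, so that the site can be seen in its surroundings. Their ranks in replicates 1 and 2 were 949 and 11404 (gei-8), 25334 and 10637 (mak-1), 8731 and 5023 (ceh-58), and 27100 and 1727 (K08B12.3). None of them was among the 1000 strongest of both replicates. The site is A or T, A or T, T, A or G, and then TCAT, read on either strand. Capitals mark the site, which in all 4 reads ATGATAAT on the + strand of ce11 (RefSeq WBcel235). The sequence near mak-1 also holds TCTCTC, directly before the site and left in lower case.
gei-8, chrIII:8125635-8125694: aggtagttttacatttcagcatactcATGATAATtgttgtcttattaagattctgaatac
mak-1, chrII:8747878-8747937: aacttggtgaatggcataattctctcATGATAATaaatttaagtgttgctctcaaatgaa
ceh-58, chrII:10373661-10373720: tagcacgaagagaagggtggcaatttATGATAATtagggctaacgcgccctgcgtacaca
K08B12.3, chrV:6232231-6232290: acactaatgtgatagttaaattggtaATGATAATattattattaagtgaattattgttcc

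Most distal regions were weak, and the class held about the share of strong regions that all autosomal regions held. The pooled signal, a value of the authors' caller whose scale is not stated, had a median of 9.36 (quartiles 7.97 and 11.5) against 9.51 over all autosomal regions. It reached 44.2 in the distal class and 80.4 over all autosomal regions. Of the 2829 members, 8 were in the authors' thresholded list (0.283%, exact 95% binomial interval 0.122 to 0.556%), while percent called over all autosomal regions was 0.293%. Among the 1000 strongest pooled regions were 83 members (2.93%, 2.34 to 3.62%), called strong members below, beside 3.27% of all autosomal regions. Both shares were near the background. Intervals cover counting error over regions, not the spread between worms, and the depth of the libraries is unknown.

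Strong regions between genes lay mainly near starts and not in distal stretches. Of the 4855 intergenic regions within 2000 bp of a start, 44 were thresholded (0.906%, 0.659 to 1.21%) and 259 were among the 1000 strongest (5.33%, 4.72 to 6.0%). The intervals of these shares did not overlap those of the distal class. Of regions in gene bodies, 19 were thresholded (0.115%) and 442 were among the 1000 strongest (2.68%, 2.44 to 2.94%). Distal bases made up 15.4% of the autosomes (12.8 Mb) and held 222 pooled regions per Mb. Bases near starts held 290 per Mb and gene bodies 311 per Mb. For the 1000 strongest the densities were 6.51, 15.5 and 8.34 per Mb, and for the thresholded list 0.627, 2.63 and 0.359 per Mb. The differences between classes were not tested, and how much of each class can be mapped by short reads is not known.

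The distal share changed little with rank, whereas the share near starts fell steeply. Distal regions were 11.3% (4.99 to 21%) of autosomal regions at ranks 1 to 97 and 10.4% (8.26 to 12.8%) at ranks 98 to 1000. In the weakest step, ranks 20001 to 29768, they were 12.2% (11.5 to 13.0%). Over the same 3 steps the share near starts was 62.0%, 29.8% and 19.8%. The distal share stayed below the distal 15.4% of autosomal bases in the point value of every step.

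**Figure D1:**
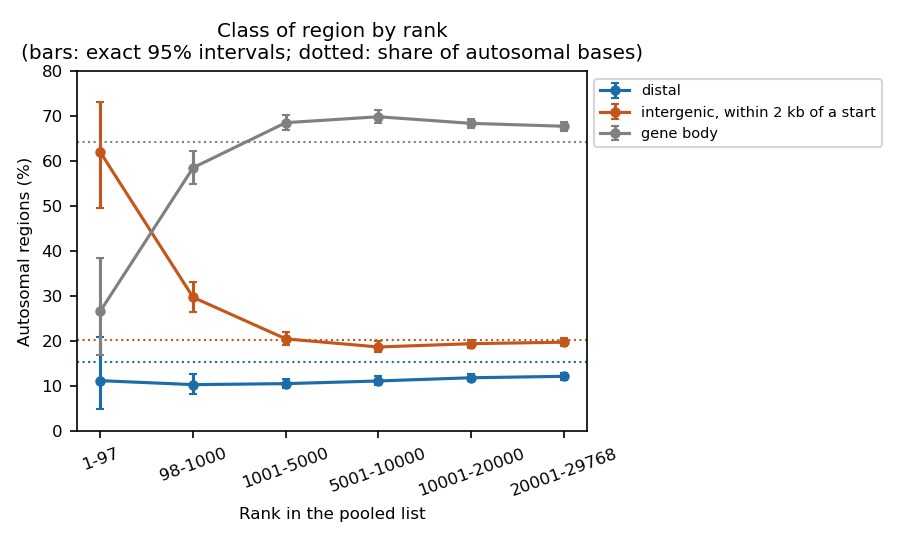
Share of autosomal regions in each class (y axis, %) by rank in the pooled list (x axis, 1 is strongest), with exact 95% intervals as bars and each class's share of autosomal bases as a dotted line. The distal share runs from 10.4 to 12.2%, while intergenic regions within 2000 bp of a start fall from 62.0 to 19.8%.

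The 8 thresholded distal regions lay near genes of mixed function, and the strongest lay inside a long non-coding RNA gene. That region (chromosome V, 1151274 to 1151663, ce11) was 4802 bp upstream of cmd-1, the calmodulin gene, and inside linc-128. Its pooled rank was 17 with a signal of 44.2. It ranked 21 in replicate 1 (signal 26.2) and 37 in replicate 2 (19.5), so it was strong in both. The region 2960 bp upstream of F07H5.13 (chromosome II, 8787402 to 8787791) had 2 other annotated genes within 1000 bp, WBGene00014308 and WBGene00014309. It had a pooled signal of 42.0 and ranked 12 in replicate 1 but 1140 in replicate 2. Signal scales differ between the lists, so ranks and not signals are set side by side across replicates.

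The region 4648 bp upstream of F22B7.9 (chromosome III, 8658378 to 8658767; pooled signal 36.4) ranked 76 in replicate 1 and 34 in replicate 2. That 2605 bp upstream of F58D12.3 (chromosome V, 14055040 to 14055429; pooled signal 36.4) ranked 29 and 509. It was the 1 thresholded member with repeated sequence, since 27.2% of its 31-base words had another exact copy in the genome. That 2567 bp upstream of Y17G7B.17 (chromosome II, 12102361 to 12102750; pooled signal 34.8) ranked 51 and 120. These 3 regions, with those at cmd-1 and Y37A1B.7, were the 5 thresholded members among the 1000 strongest of both replicates.

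The remaining thresholded members were uneven between the replicates or lay next to a microRNA. The region 2664 bp upstream of nhr-88, a nuclear hormone receptor gene (chromosome II, 2973780 to 2974169; pooled signal 33.1), ranked 39 in replicate 2 and 4712 in replicate 1. The region 3242 bp upstream of C26C6.9 (chromosome I, 7518173 to 7518562; pooled signal 35.1) ranked 200 in replicate 1 and 3096 in replicate 2. The region named after Y37A1B.7 (chromosome IV, 14033740 to 14034129; pooled signal 30.3) was 9845 bp from that start, on its downstream side. Its ranks were 55 and 783, and its summit was 73 bp upstream of the microRNA gene mir-52.

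The region 2224 bp upstream of nhr-34, also a nuclear hormone receptor gene, had a pooled signal of 28.0 and ranked 313 and 1076 in replicates 1 and 2. The region 3465 bp upstream of rho-1, a RhoA GTPase gene, had a signal of 26.9 and ranked 112 and 4138. The region 2001 bp upstream of cey-1, a Y-box RNA-binding protein gene, had a signal of 26.2 and ranked 1830 and 123. It lay at the distance limit of the class. Each of these 3 was strong in 1 replicate and outside the 1000 strongest of the other.

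The region 6235 bp upstream of unc-39, a Six-family homeobox gene, had a pooled signal of 26.0 and ranked 626 and 510. The region near cdc-48.1, a p97-type ATPase gene, had a signal of 25.1 and ranked 445 and 513. The region 6539 bp upstream of elt-1, a GATA factor gene required for epidermal fate, had a signal of 22.7 and ranked 487 and 750. These 3 were among the 1000 strongest of both replicates. A pair of overlapping members upstream of egl-10, which encodes a regulator of G protein signalling, had pooled signals of 23.9 and 21.2. Both overlapped the same replicate regions, at ranks 688 and 334, and so count as 1 locus. The region 3100 bp upstream of fos-1, a Fos-family bZIP gene, ranked only 2520 in the pooled list (signal 15.1), although its replicate ranks were 460 and 121. The other 3 named regions lay near C17G10.6, T19C3.4 and C33D9.13, at pooled ranks 114, 125 and 164. The first ranked 306 in replicate 1 and had no region in replicate 2, the second ranked 1179 and 78, and the third ranked 453 and 2818.

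**Figure D2:**
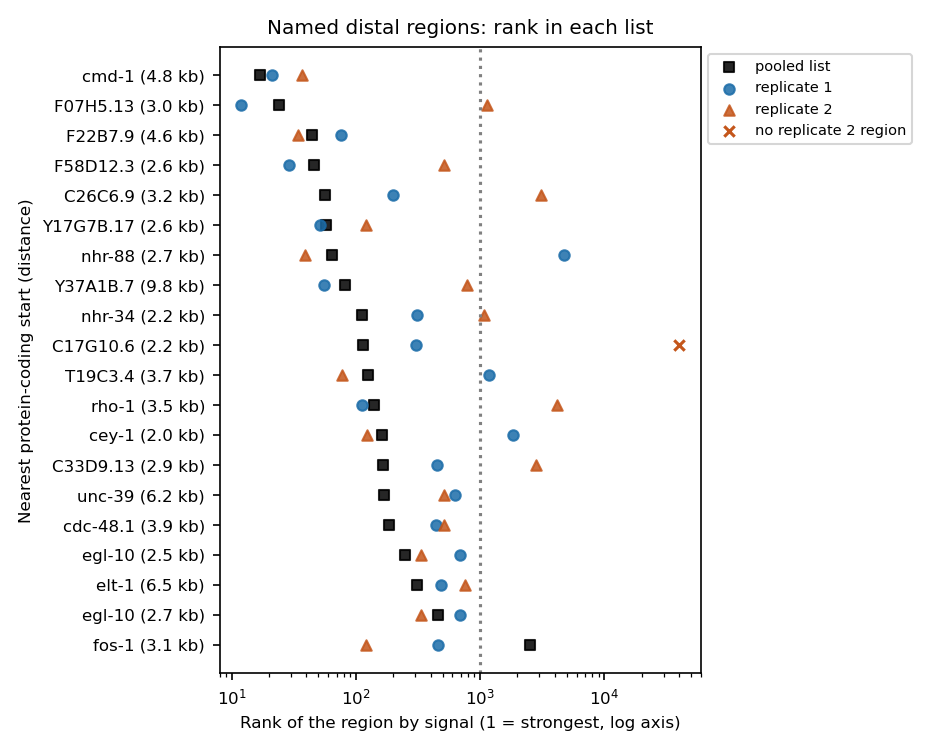
Rank by signal (x axis, log scale, 1 is strongest) of the 20 named distal regions in the pooled list and in each replicate, labelled by the nearest protein-coding start and its distance. The dotted line marks rank 1000, and the cross marks the region near C17G10.6, which had no region in replicate 2.

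Few distal regions were strong in both replicates. Among the 1000 strongest of replicate 1 were 87 members (3.08%), beside 3.42% of all autosomal regions, and among those of replicate 2 were 91 (3.22%), beside 3.84%. Overlap with the 1000 strongest of both was found for 13 members (0.460%, 0.245 to 0.785%), beside 0.566% of all autosomal regions. The 13 members formed 10 loci after overlapping members were merged. The share was 1.40% (1.09 to 1.77%) near starts and 0.340% (0.257 to 0.441%) in gene bodies. Of the 83 members among the 1000 strongest pooled regions, 10 were that strong in both replicates, 29 in replicate 1 only, 16 in replicate 2 only and 28 in neither. The pooled list holds the same reads as the replicates, so these overlaps are partly built in.

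At any strength, replicate support was also partial. A region of replicate 1 overlapped 1456 members (51.5%), a region of replicate 2 overlapped 1631 (57.7%), and regions of both overlapped 715 (25.3%, 23.7 to 26.9%). The share with both was 30.5% (29.3 to 31.9%) near starts and 28.5% (27.8 to 29.2%) in gene bodies. For replicates 1 and 2 taken singly, the shares were 54.3% and 61.8% near starts and 54.4% and 59.9% in gene bodies. Regions had a median width of 240 bp in replicate 1 and 396 bp in replicate 2. Wider regions overlap others more readily, and the part of width was not tested. Neither replicate listed a region at 457 members. Each replicate list holds 30000 regions whatever their strength, so listing alone does not mark a region as bound. Across the 623 merged loci with a region in both, replicate signals had a Spearman rho of 0.112 and a Pearson r of 0.273. These describe loci, which share their libraries and are not independent samples. The loci were also selected by the pooled list and by both replicate lists, which bears on these values by an amount not tested. The values are thus no measure of how well the replicates agree outside these loci. When each replicate's own list was classified by the same rule, 2877 of 24454 autosomal regions (11.8%) were distal in replicate 1 and 2873 of 24139 (11.9%) in replicate 2.

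Distal regions lay a median of 3640 bp from the nearest protein-coding start (quartiles 2680 and 5301 bp, longest 37377 bp). The nearest start was downstream of the region, so that the region lay upstream of its gene, for 1854 members (65.5%, 63.8 to 67.3%) and for 63 of the 83 strong members. Between neighbouring genes transcribed away from each other, every position is upstream, so these shares are partly set by gene layout. The share of distal bases that lie upstream was not counted, so no preference can be read from them. Strong members were most frequent just past the limit. Of members 2001 to 3000 bp away, 39 of 967 (4.03%, 2.88 to 5.47%) were among the 1000 strongest. From 3000 to 5000 bp they were 26 of 1062 (2.45%, 1.61 to 3.57%), and from 5000 to 10000 bp 16 of 674 (2.37%, 1.36 to 3.83%). Beyond 10000 bp they were 2 of 126 (1.59%, 0.193 to 5.62%). The intervals of these steps overlapped. At the limit itself, 66 members at 2001 to 2049 bp had a median signal of 9.43 and a highest of 26.2, and 77 regions just outside the class, at 1951 to 2000 bp, had 9.34 and 22.7.

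The gaps between genes that held them had a median length of 8863 bp (quartiles 5562 and 13801 bp) and a longest of 70728 bp. Gaps between neighbouring genes on the same strand held 1576 members (55.7%, 53.9 to 57.6%) and 53.2% of distal bases. Gaps whose genes are both transcribed outward, here called divergent, held 834 (29.5%, 27.8 to 31.2%) and 27.9% of the bases. Gaps into which both genes are transcribed, called convergent, held 419 (14.8%, 13.5 to 16.2%) and 18.7% of the bases. The convergent share was thus below its share of bases, and its interval did not reach it. The median gap length was 11373 bp for divergent gaps, 8264 bp for gaps between genes on the same strand and 4340 bp for convergent gaps. The distance rule in itself asks for a long gap where starts face it from both sides. Of the 83 strong members, 29 lay in divergent gaps (34.9%, 24.8 to 46.2%) and 8 in convergent ones (9.64%, 4.25 to 18.1%).

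Distal regions were spread over all 5 autosomes, from 187 per distal Mb on chromosome IV to 255 on chromosome III. Counts were 472 on chromosome I, 535 on II, 489 on III, 671 on IV and 662 on V. When each chromosome was cut into 3 equal segments, the central one, which is gene-rich and recombines little, held 33.1% of members (31.4 to 34.9%) and 29.0% of distal bases. Of the 83 strong members it held 35 (42.2%, 31.4 to 53.5%), and of the 13 strong in both replicates 4.

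The word intergenic applied to protein-coding genes only. Of the 2829 members, 2381 (84.2%) lay outside every annotated gene of any type, and 448 had their summit inside another annotation. A pseudogene held 331 of all 2829 members (11.7%, 10.5 to 12.9%), though only 3 of the 83 strong members (3.61%). Near starts a pseudogene held 4.33% of regions, and of regions in gene bodies 0.279%. A lincRNA gene held 30 of all members (1.06%, 0.717 to 1.51%), beside 0.309% near starts and 0.0182% in gene bodies. Of the strong members, 4 lay inside a lincRNA gene (4.82%, 1.33 to 11.9%). Beside the region in linc-128, these lay in linc-91 (pooled rank 325), in linc-129 (rank 808) and in the overlapping linc-110 and linc-133 (rank 890). The linc-91 region ranked 170 in replicate 1 and 11379 in replicate 2, and the linc-129 region 18278 and 469. The region in linc-110 and linc-133 ranked 6290 and 10680, so among these 4 only the region in linc-128 was among the 1000 strongest of both replicates. Genes of the general class ncRNA lay within 1000 bp of 497 members (17.6%, 16.2 to 19.0%) and of 33 of the 83 strong ones (39.8%, 29.2 to 51.1%). The same share was 25.1% (19.9 to 30.8%) of strong regions near starts. These differences were not tested.

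A strong distal region lay within 1000 bp of 4 microRNA genes, mir-52, mir-241, mir-80 and mir-238. MicroRNAs are short RNAs that repress messenger RNAs by pairing with them, and in worms many are transcribed from promoters of their own. A member lay within 1000 bp of 24 of the 187 autosomal microRNA genes. The 28 members made 33 pairs with those genes, and in 19 pairs the summit lay upstream of the microRNA. No matching counts of genes or pairs from other classes are set beside these. Of the 83 strong members, 4 had a microRNA gene within 1000 bp (4.82%, 1.33 to 11.9%), against 28 of all 2829 (0.990%, 0.659 to 1.43%). The intervals of these 2 shares overlapped slightly. The share was 0.577% (0.384 to 0.832%) of all regions near starts and 0.412% (0.320 to 0.523%) of those in gene bodies. Of the 259 strong regions near starts, 2 had a microRNA gene within 1000 bp (0.772%, 0.0937 to 2.76%). The intervals of distal regions and regions near starts overlapped, over all and over strong ones. The differences were not tested.

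The strong region nearest to a microRNA was that 73 bp upstream of mir-52, a gene of the mir-51 family. A region 556 bp upstream of mir-241 (pooled rank 167) is the one also named after unc-39. Its replicate ranks of 626 and 510 were close. mir-241 and mir-48 belong to the let-7 family, which acts in the timing of larval development, and mir-48 had its own member 331 bp upstream, at pooled rank 2364. That weaker member ranked 7830 in replicate 1 and 8982 in replicate 2. The region 211 bp upstream of mir-80 had a pooled signal of 25.1 and ranked 187, with replicate ranks of 1539 and 136. Its nearest protein-coding start, that of K01F9.2, was 11550 bp away. A second region in the same gap lay 649 bp downstream of the start of mir-238, at pooled rank 478, and ranked 224 in replicate 1 and 17796 in replicate 2. Of the 4, the regions at mir-52 and mir-241 were thus among the 1000 strongest of both replicates.

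**Figure D3:**
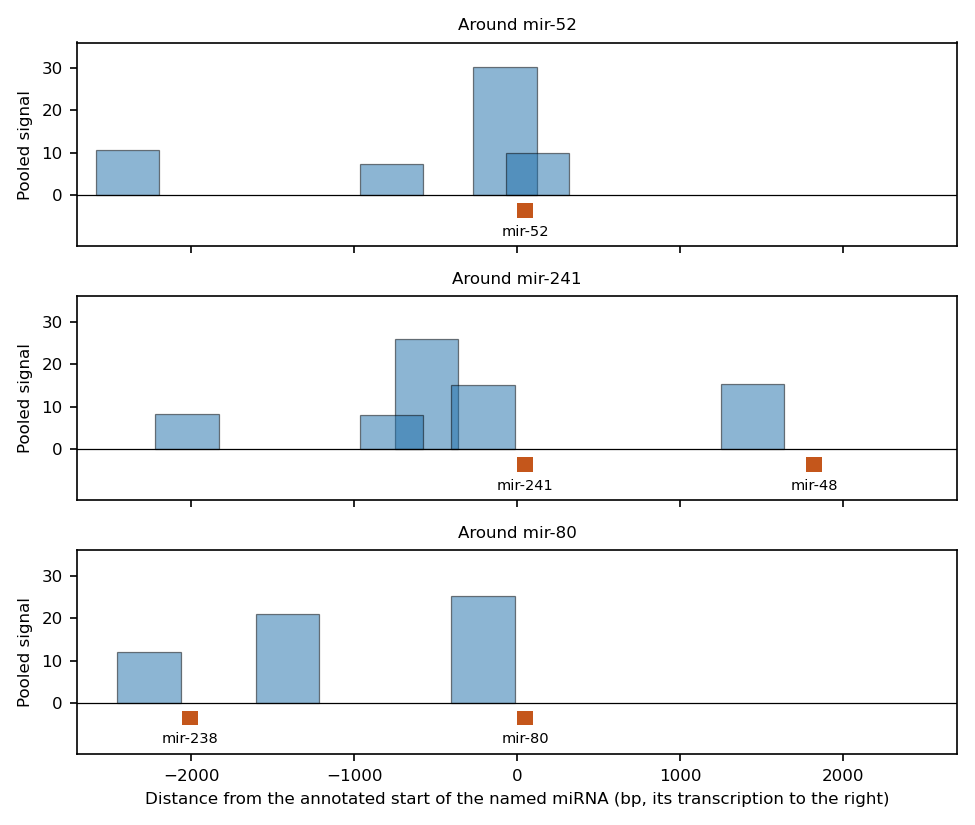
Distal regions (blue boxes, height is pooled signal on the y axis) around mir-52, mir-241 and mir-80, with microRNA genes as orange squares below the line. The x axis is the distance in bp from the annotated start of the named microRNA, with its transcription to the right. The highest box of each map has its summit 73, 556 and 211 bp upstream of mir-52, mir-241 and mir-80.

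As nearest start, 1847 of 17242 autosomal protein-coding genes had a distal region, so percent called was 10.7%. Genes of homeobox (ceh), unc and nuclear receptor (nhr) names stood above that share. A member was nearest to 11 of 45 ceh genes (24.4%, 12.9 to 39.5%), to 19 of 78 unc genes (24.4%, 15.3 to 35.4%) and to 39 of 246 nhr genes (15.9%, 11.5 to 21.03%). A strong member was nearest to 78 of all 17242 genes, a percent called of 0.452%. In these lists such members were nearest to ceh-58, to unc-39 and unc-62, a Meis-class homeobox gene, and to nhr-20, nhr-34 and nhr-88. Insulin-like and neuropeptide genes had 18 of 106 (17.0%, 10.4 to 25.5%) and let and lin genes 12 of 73 (16.4%, 8.79 to 27.0%). Neither of these lists had a gene with a strong member, and lists this short are too small to read a 0 against 0.452%.

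Detoxification genes, for which SKN-1 is best known, were seldom next to a distal region. Of 172 gst, ugt and cyp genes with gcs-1, 6 had one (3.49%, 1.29 to 7.44%), below the 10.7% of all genes. The strongest was near gst-21, a glutathione S-transferase gene, at pooled rank 6561. None of the 172 was nearest to a strong member, which allows up to 1.74% (3 counts of the total) or 2.12% (exact limit). This does not separate the list from the 0.452% of all genes. Chemoreceptor genes had 49 of 677 (7.24%, 5.40 to 9.46%), collagen genes 7 of 129 (5.43%, 2.21 to 10.9%) and ribosomal protein genes 4 of 76 (5.26%, 1.45 to 12.9%). A gene can have a distal region only where bases outside gene bodies lie more than 2000 bp from every protein-coding start. This depends on the lengths of both gaps and genes. The shares of these lists were not corrected for gap length or gene length, and the part of either was not tested.

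Some genes had several distal regions. Of the 1847 genes, 1246 had 1 member, 374 had 2 and 139 had 3. The genes with most, picked after their values were seen, were W04D12.1 with 9 members in 6 loci and zfh-2, a zinc-finger homeobox gene, with 8 in 8 loci. Those of zfh-2 lay 4378 to 15256 bp from its start, and the strongest ranked 2976. There were 7 members each at unc-39, at egl-27, a gene for a protein related to the MTA chromatin factors, at dmd-6, a DM-domain gene, and at ZC190.4. The strongest at egl-27 ranked 272 and the strongest at dmd-6 ranked 1258.

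GC content rose with strength in the distal class. Within 100 bp of the summit the median was 36.3% (quartiles 31.8 and 41.3%) over all members. The flanks, windows of the same 201 bp centred 1000 bp to each side, had a median of 34.3%. The summit window was the richer one in 57.7% of members against the left flank and in 56.2% against the right. The median was 48.5% in the 8 members at ranks 1 to 97, 43.3% at ranks 98 to 1000 and 35.3% in the weakest step. For the 83 strong members it was 44.3% at the summit and 35.3% in the flanks. Regions near starts went from 45.8 to 34.3% and gene bodies from 49.3 to 37.8% over the same ranks, so the rise was seen in all 3 classes.

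**Figure D4:**
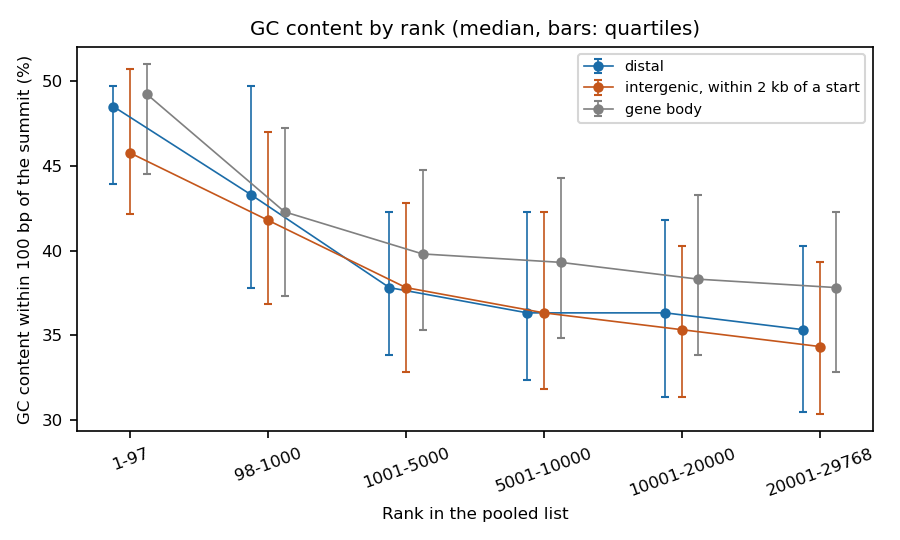
GC content within 100 bp of the summit (y axis, %; points are medians and bars quartiles) by rank in the pooled list (x axis) for distal regions, intergenic regions within 2000 bp of a start and gene bodies. The distal median falls from 48.5% at ranks 1 to 97 to 35.3% at ranks 20001 to 29768.

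Over all 2829 members, the SKN-1 site was about as frequent at the summit as in the flanks. The site was found within 100 bp of the summit in 271 members (9.58%, 8.52 to 10.7%), in 265 left flanks (9.37%) and in 298 right flanks (10.5%). A two-sided exact McNemar test of each member against its own flank gave p = 0.818 and p = 0.248, with adjusted p = 0.818 for both over 8 tests. The share over all autosomal regions was 9.08%. Of the 83 strong members 4 held it (4.82%), against 8 of their left flanks (9.64%) and 9 of their right flanks (10.8%). The site is mostly A and T, and these members had a median GC content of 44.3% at the summit and 35.3% in the flanks. The flank comparisons do not match base composition, and its part in these counts was not tested. None of the 8 thresholded members held it, which allows a share of up to 37.5% (3 counts of the total). None of the 13 members strong in both replicates held it either, which allows up to 23.1% (3 counts of the total) or 24.7% (exact limit).

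The other fixed motifs did not pass the test at the summit. The shorter core of the site, ATCAT or GTCAT, lay in 1507 members (53.3%), in 1492 left flanks and in 1493 right flanks. All autosomal regions had 55.5%. The word TGATAA, bound by factors of the GATA family, lay in 495 members (17.5%), 514 left and 519 right flanks, beside 16.7% of all autosomal regions. TGANTCA, the motif of AP-1 bZIP factors, lay in 157 (5.55%), 164 and 168, beside 5.83%. Adjusted p was 0.818 in each of these exact McNemar tests, which have the same limits as the test of the SKN-1 site. All motifs were searched on both strands, and they overlap in part. The printed site ATGATAAT contains TGATAA, and 125 of the 271 members with the SKN-1 site (46.1%) also held TGATAA. Summits were the middle of regions of 390 bp, so a bound site may lie outside the window searched.

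GAGAGA or TCTCTC was frequent at strong distal regions. This word was picked after reading the strongest sequences printed above, so its counts are a description with no test. Within 100 bp of the summit it was found in 6 of the 8 thresholded members and in 1 of their left and 1 of their right flanks. Of the 83 strong members 39 held it (47.0%, 35.9 to 58.3%), against 11 left flanks and 11 right flanks (13.3% each). Of all 2829 members 470 held it (16.6%, 15.3 to 18.0%), against 314 left flanks (11.1%) and 297 right flanks (10.5%). Over all autosomal regions the share was 14.1%.

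The share with GAGAGA or TCTCTC fell with rank. It was 75% at ranks 1 to 97, 44.0% (32.5 to 55.9%) at ranks 98 to 1000, 19.5% (15.4 to 24.1%) at ranks 1001 to 5000 and 12.8% (10.8 to 15.1%) at ranks 20001 to 29768. The flanks of both sides together went from 12.5 to 9.37%. The word was also frequent among strong regions near starts (40.2%, 34.1 to 46.4%), and less so among strong regions in gene bodies (24.2%, 20.3 to 28.5%). GC content fell over the same ranks, and its part was not tested. Of the 20 named regions, which include those whose sequences were read, 15 held the word. Those near cmd-1, F58D12.3, C17G10.6, cdc-48.1 and elt-1 did not.

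Each replicate's own list gave the same direction at its strongest distal regions. Several of these are the loci from whose sequences the word was picked, so the counts are not a separate check of it. In replicate 1 the word lay in 8 of the 10 distal regions among its 97 strongest, and in 29 of 77 among its 1000 strongest (37.7%, 26.9 to 49.4%; 9 left and 8 right flanks). In replicate 2 it lay in 5 of 6, and in 19 of 72 (26.4%, 16.7 to 38.1%). There 16 left flanks (22.2%) and 6 right flanks (8.33%) held it, so the excess over the left flank was small in replicate 2. The SKN-1 site lay in 0 of the 77 strong distal regions of replicate 1. This allows up to 3.90% (3 counts of the total) or 4.68% (exact limit). In replicate 2 the site lay in 7 of the 72 (9.72%).

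**Figure D5:**
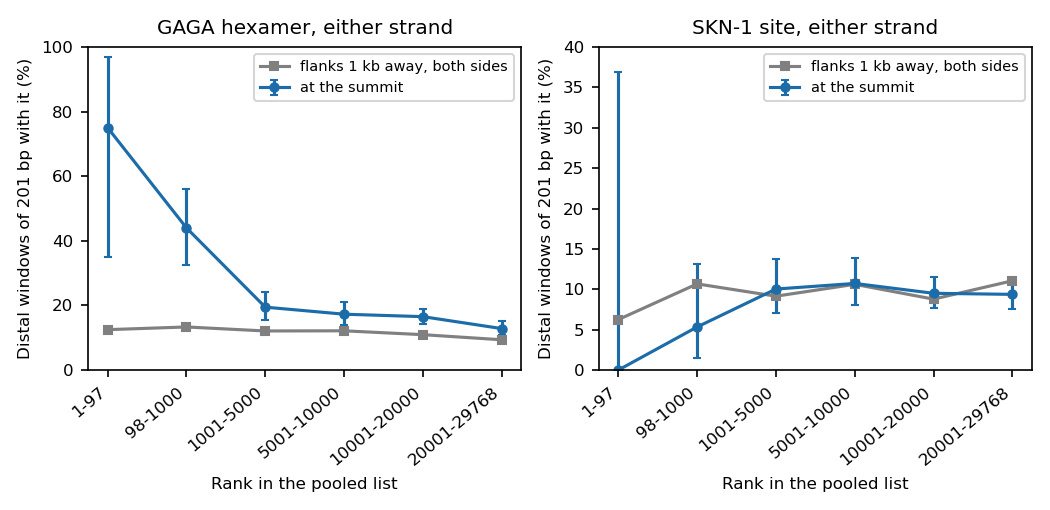
Share of distal windows of 201 bp (y axis, %) that hold GAGAGA or TCTCTC (left) or the SKN-1 site (right), by rank in the pooled list (x axis), at the summit with exact 95% intervals and in the flanks centred 1000 bp away. The left curve falls from 75 to 12.8% and on the right the flank value lies within the summit's interval in all 6 steps.

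Regions made up largely of exactly repeated 31-base words were rare in the class. At least 50% of the 31-base words of a region had another exact copy in the genome in 12 of 2829 members (0.424%, 0.219 to 0.740%). The share was 0.618% near starts and 0.303% in gene bodies. None of the 83 strong members reached it, which allows up to 3.61% (3 counts of the total) or 4.35% (exact limit). Any repeated word was found in 3 of these strong members, against 542 of all members (19.2%). Of the 331 members inside a pseudogene, 2 reached 50%. Other measures gave more. The share of bases masked in the genome sequence had a median of 30.5% in members, 31.5% near starts and 23.3% in gene bodies.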

How the data were processed

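ChIP-seq of eGFP-tagged SKN-1 was measured in 2 biological replicates of 1 group. For ce11 the authors deposited 1 list of regions for each replicate, a relaxed pooled list and a thresholded list. Per the file listing deposited with each sample, the replicate and pooled lists were made with the same control alignment and fed a threshold on the irreproducible discovery rate. Its value, the peak caller, the aligner and the depth are not stated in those sources. The deposited signal of each region is the authors' value, with no stated scale, and served for ranking within 1 list. The authors' deposited −log10 q-value stops at a ceiling in each list and was not used for ranking. Lists for ce10 were not used here.

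Regions were classified with Ensembl release 115 genes, and sequence was taken from RefSeq WBcel235, the same assembly as ce11. Regions count as overlapping from 1 bp. Motifs were counted in windows of 201 bp at the summit and 1000 bp to each side. Only the 4 motifs at members against their own flanks were tested, by two-sided exact McNemar tests with Benjamini-Hochberg adjustment over 8 tests at a threshold of 0.05. These tests were checked on simulated data. Shares have exact Clopper-Pearson 95% intervals, which cover counting error only. For a count of 0 the limit given is 3 counts of the total, with the upper end of the exact interval where that is higher. Named regions are all thresholded members, the 15 strongest, the strongest of each autosome and 5 more by pooled rank among the 1000 strongest of both replicates. The members and lists were chosen with earlier results of these data known. Alternatives covered distances, list lengths, windows, flanks and each replicate alone. Merging of overlapping members was added after seeing the data. Python 3.11.15, numpy 2.4.6, pandas 2.3.3, scipy 1.17.1, statsmodels 0.14.6 and matplotlib 3.10.9 were used.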

Additional observations from a re-analysis of the deposited data

How the results depend on the processing

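No motif test passed the threshold under any of the 74 alternatives run, where adjusted p by the exact McNemar test ran from 0.0680 to 1, and 21 of the 74 differences changed sign. The differences below are shares at the summit minus shares in the flank, in percentage points. The SKN-1 site against the left flank, 0.21 as reported, was -0.51 with a distance over 1000 bp, -0.88 over 5000 bp, -0.037 with the whole region outside gene bodies, -0.49 with 50 bp to each side, -0.11 with flanks 500 bp away and -1.82 for members with a region in both replicates. The core against the left flank was -0.64 with flanks 500 bp away and -4.34 for members with a region in both replicates, and against the right flank -2.94 for those members and -2.80 for the 500 strongest members. TGATAA was 0.49 (left) and 0.14 (right) with flanks 500 bp away, and 2.20 (left) for the 500 strongest members. TGANTCA against the left flank was 0.28 with 150 bp to each side, 0.25 with flanks 500 bp away and 0.70 for members with a region in both replicates. With 1 replicate left out, the SKN-1 site ran from -0.73 to -0.24 (left), the core from -3.30 to 0.35 (left) and from -0.73 to 0.035 (right), and TGANTCA from -0.42 to 0.21 (left). Leaving out replicate 1 gave the lowest p of all, for TGANTCA against the right flank. The cause of these shifts was not tested.

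GC content stayed higher at the summit in all 14 alternatives. The difference of medians, 1.99 points, was 3.48 against either flank for members with a region in both replicates, 3.98 (left) and 4.48 (right) for the 500 strongest members, and 1.49 to 1.99 with 1 replicate left out. Counts moved by construction with a changed limit. Over 1000 bp there were 4314 distal regions, 13 thresholded, 130 among the 1000 strongest and 23 strong in both replicates, and over 5000 bp there were 800, 1, 18 and 5. The 48 strongest thresholded peaks held 4 members and the 500 strongest pooled regions 47. With the 500 or 2000 strongest of each replicate, 4 and 25 members were strong in both. At least 50% repeated words were found in 1.27% of members with 21-base words, and any repeated 31-base word in 19.2%. Merging overlapping members, chosen after seeing the data, gave 2617 loci. No paired analysis was possible because the 2 replicates form 1 group. Without read counts, depth sets an unknown limit on the weak regions.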
